A study of Mus musculus with 3 samples.

Results

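The genes of the proteasome were followed in ribosome profiling libraries of cultured mouse cortical neurons. Protein-coding genes named Psma, Psmb, Psmc, Psmd, Psme, Psmf or Psmg followed by a number were taken, 50 of the 20823 genes with reads tabulated for 5′ UTR, coding sequence (CDS) and 3′ UTR alike. Each gene was represented by its longest such transcript. The name rule used no measured value.

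In ribosome profiling, mRNA is digested with nuclease and the pieces protected by ribosomes, called footprints, are sequenced. The study compared 3 libraries of primary cortical neurons, each from 3 pooled culture dishes. WT neurons received no drug. Chx neurons were treated for 2 min with cycloheximide, a drug that freezes ribosomes during elongation. Harr neurons were treated for 2 min with harringtonine, a drug that traps newly initiated ribosomes at start codons while those already elongating run on, before a cycloheximide pulse. The buffers for rinsing and lysis contained 100 μg per ml cycloheximide for all 3 groups, so that WT was not free of it. The labels give no genotype, and groups were taken from titles and treatment labels. The descriptions name other material instead (input or pulldown fractions, cytosol or psd, dep neurons), and this conflict could not be settled from the data. With 1 library per treatment no difference has a replicate check, no p-value is given, and every ± is a standard error from counts alone. Depth was 35722483, 9754412 and 30219197 reads in Chx, Harr and WT, so that 3 counts, the limit a count of 0 allows, were 0.0840, 0.308 and 0.0993 reads per 1000000. Markers of neurons were read at 3731 to 4033 per 1000000 (8 genes summed), those of astrocytes at 78.8 to 213 (4 genes), those of oligodendrocytes at 2.15 to 6.52 (4 genes, with Mog and Mobp at 0 in each library) and those of microglia at 1.44 to 2.80 (4 genes).

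The proteasome degrades proteins tagged with ubiquitin. Its core is a barrel of stacked rings, in which the outer α rings gate the entry and the inner β rings carry the proteolytic sites, and a regulatory particle of ATPase and non-ATPase subunits binds, unfolds and feeds in the substrate. Neurons depend on it for the turnover of synaptic proteins, and the subunits are needed in fixed ratios in the finished complex. Of the 50 genes, 31 encode constitutive subunits of the core or the regulatory particle, 5 encode inducible or tissue-specific core subunits, 7 encode assembly chaperones, 5 encode activators of the core and 1 encodes an inhibitor. Psmc3ip matched by name alone, since it encodes a partner of Psmc3 that acts in meiotic recombination.

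Harringtonine collects ribosomes at start codons, so the start codons of the genes that the results turn on are shown, each with 12 nucleotides before it and the 12 that begin with it, 5′ to 3′. They were read from the GENCODE M21 transcripts (mm10), and capitals mark the start codon.
Psma4: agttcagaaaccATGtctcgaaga
Psma3: cgggtcagcaccATGagctccatc
Psmb5: cccttgctaaacATGgcgctggct
Psmb7: tttcttggcaagATGgcggctgtg
Psmb4: gaggtgactaagATGgaagcgttt
Psmc2: tgcagtccccagATGtccagggaa
Psmd13: ctctctgcaatcATGaaggatgtg
Psme4: ggccccgggctaATGgaggctccg
Psme2: gtggggggaagcATGgccaagcct
Psme2b: gtggggggaagcATGgccaagcct
Psma4, Psmb4 and Psmd13 are among the genes with the highest 5′ UTR:CDS ratios of Harr to Chx, Psma3 has the highest of Chx to WT, Psmb5 and Psmb7 encode catalytic subunits, and Psmc2 and Psme4 had few 5′ UTR reads. Psme2 and Psme2b show the same letters because Psme2b is a single-exon copy of Psme2. Psmb6, the remaining catalytic subunit, has a 5′ UTR of 11 nucleotides and is too short for this window. A purine stood 3 nucleotides before the start codon in 44 of 48 genes with a full window (91.7%) and in 84.1% of 20430 windows of all genes. A G directly followed the start codon in 28 of the 48 (58.3%) against 49.2%. An ATG lay upstream in the 5′ UTR of 16 of 50 genes (32.0%) against 55.4% of all genes with a transcript sequence. The 5′ UTRs were shorter than usual as well, with a median of 112 nucleotides against 177, and so were the CDSs, with 794 against 1146.

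The level of a CDS is given as RPKM, reads per 1000 nucleotides of CDS and per 1000000 reads of the library. In WT the 31 constitutive subunits ran from 45.6 RPKM for Psmd11, a subunit of the lid of the regulatory particle, to 305 RPKM for Psmb1, a β subunit without a proteolytic site. Their median was 119 RPKM, and 27 of the 31 lay within 2-fold of it. In Chx they ran from 44.3 RPKM to 320 RPKM with the same genes at the ends and a median of 112.5, and again 27 of 31 lay within 2-fold of the median. In Harr the median was 36.6 RPKM and 23 of 31 lay within 2-fold of it. The SD of log2 RPKM over these subunits reached 0.92 for Harr, 0.69 for WT and 0.67 for Chx, whereas over the genes with at least 100 CDS reads summed it was 2.05, 2.20 and 2.17. The subunits of the complex were thus read at closer levels than genes at large, with the widest spread in Harr, a description with no test. On transcripts with the longest CDS the SD was 0.80 for Harr, 0.68 for WT and 0.66 for Chx. There 26 of 31 lay within 2-fold of the median in Harr. Without genes sharing over 20% of their 25-nucleotide words with others, the SD was 0.74, 0.65 and 0.64 over 22 subunits.

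**Figure D1:**
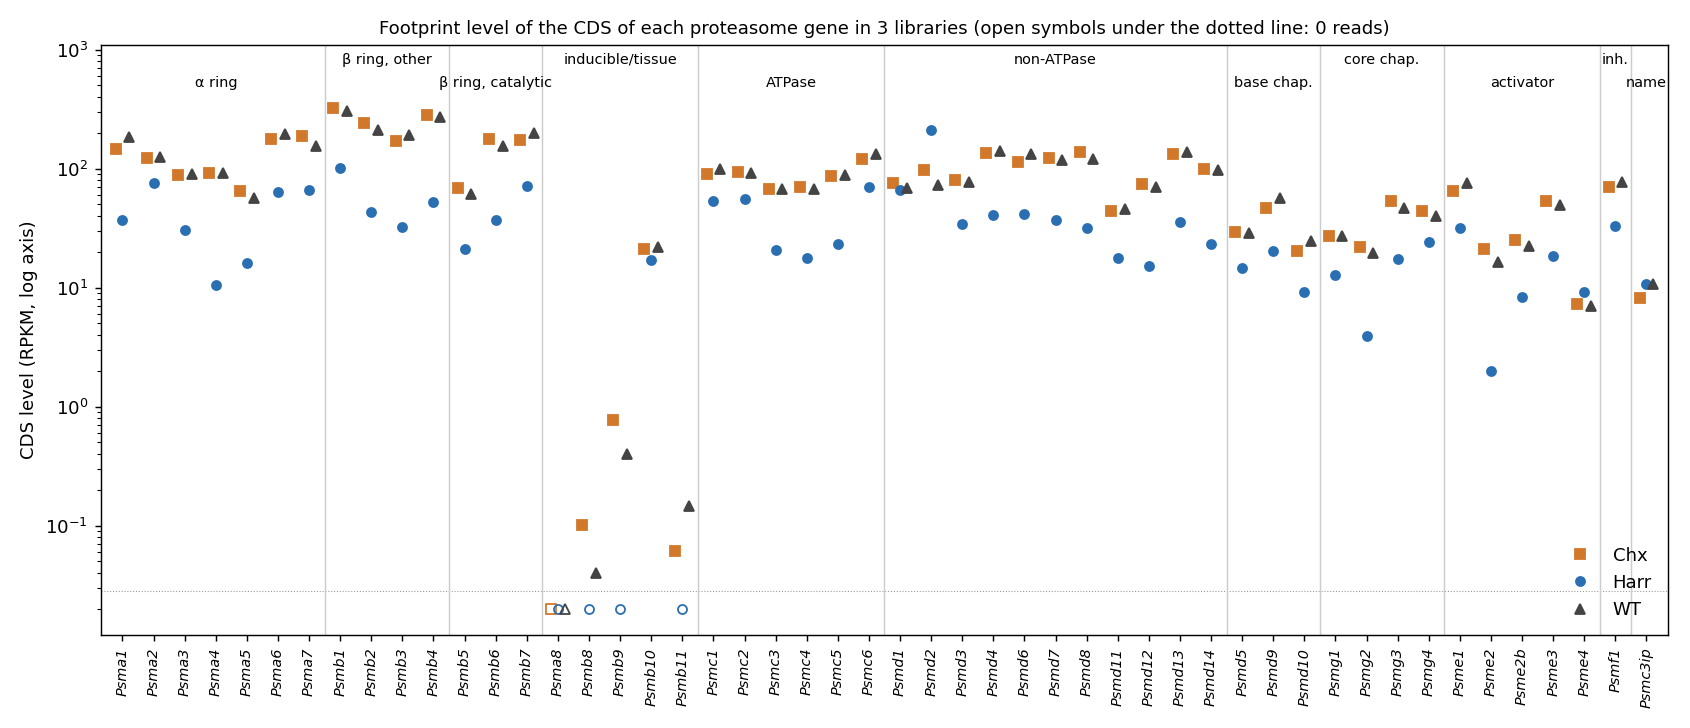
CDS level (RPKM, log axis) of each of the 50 genes in Chx (squares), Harr (circles) and WT (triangles), grouped by role, with open symbols for 0 reads. Constitutive subunits sit between 44.3 and 320 RPKM in Chx and between 45.6 and 305 RPKM in WT, and 4 of the 5 inducible or tissue-specific subunits lie near or at 0.

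The α ring, whose N-terminal tails form the gate, held levels in WT from 56.3 RPKM (Psma5) to 195 RPKM (Psma6), a 3.47-fold range over 7 genes. The non-catalytic β subunits were the highest group, from 190.5 RPKM (Psmb3) to 305 RPKM (Psmb1) in WT, a 1.60-fold range over 4 genes. The 6 ATPases, which form the ring that unfolds the substrate, were the most even of the larger groups, from 66.8 RPKM (Psmc4) to 133 RPKM (Psmc6), a 1.99-fold range. The 11 non-ATPase subunits ran from 45.6 RPKM (Psmd11) to 141 RPKM for Psmd4, a receptor for ubiquitin chains.

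In WT the chaperones, activators, Psmf1 and Psmc3ip were read below the median of the constitutive subunits, though some lay above the lowest of these. The chaperones of core assembly had 19.5 RPKM (Psmg2) to 46.4 RPKM (Psmg3) in WT, and those of the base of the regulatory particle 24.5 RPKM (Psmd10) to 56.4 RPKM (Psmd9). Among the activators, which cap the core in place of the regulatory particle, Psme1 had 74.96 RPKM and Psme4, the largest of them, 7.05 RPKM. Psmf1, a regulator first described as an inhibitor of the core, had 70.0, 32.7 and 77.7 RPKM in Chx, Harr and WT. Psmc3ip had 8.22, 10.7 and 10.7 RPKM.

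Each proteolytic activity of the core has a standard subunit and an inducible one that takes its place in immune cells and under interferon. Psmb5 (CDS on chromosome 14, 54614192 to 54617991, mm10, minus strand) carries the chymotrypsin-like site. It had 1946, 164 and 1482 CDS reads in Chx, Harr and WT, and its counterpart Psmb8 had 3, 0 and 1. Psmb6 (chromosome 11, 70525397 to 70527579, plus strand), with the caspase-like site, had 4573, 256 and 3338 reads, and its counterpart Psmb9 had 18, 0 and 8. Psmb7 (chromosome 2, 38588177 to 38643902, minus strand), with the trypsin-like site, had 5158, 586 and 5000 reads, and its counterpart Psmb10 had 618, 136 and 543. Per nucleotide of CDS, Psmb6 exceeded Psmb9 by 384-fold in WT (exact 95% counting interval 195 to 890) and by 234-fold in Chx (148 to 395). Psmb7 exceeded Psmb10 by 9.08-fold in WT (8.30 to 9.93), 8.23-fold in Chx (7.57 to 8.96) and 4.25-fold in Harr (3.52 to 5.16). Psmb5 exceeded Psmb8 by 678-fold in Chx (232 to 3291), and in Harr by at least 57.1-fold, taking 3 counts as the limit for the 0 of Psmb8. Psmb10 was therefore the inducible subunit with a clear level in these cultures, at 21.9 RPKM in WT, and the others rested on at most 18 reads in any library. Microglial markers, from cells known to carry inducible subunits, summed to 100, 14 and 81 CDS reads, and their part in these counts was not tested. Of the 25-nucleotide words in the Psmb5 transcript 78.6% also occur in other genes, so its counts are uncertain, as are those of 12 other members with more than 20% of such words (Psma3, Psma4, Psma5, Psmb3, Psmb6, Psmc1, Psmd2, Psmd11, Psme1, Psme2, Psme2b and Psmg3).

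Tissue-specific subunits were nearly absent. Psmb11, the β subunit of cortical cells of the thymus, had 2, 0 and 4 reads in Chx, Harr and WT. Psma8, the α subunit of male germ cells, had 0 reads in each library, which allows at most 0.437 RPKM in Chx, 1.60 in Harr and 0.517 in WT. Its longest transcript is annotated as a target of nonsense-mediated decay, and the transcript with its longest CDS also had 0 reads.

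The study made these libraries to search 5′ UTRs for translated upstream reading frames. Here the libraries were compared in how reads divide between 5′ UTR and CDS. Reads were counted at their 5′ end, so a ribosome on the start codon is counted in the 5′ UTR. Summed over the 50 genes, the 5′ UTR held 3.83% of 135412 reads in WT (Wilson 95% interval 3.73 to 3.93), 5.61% of 162277 in Chx (5.50 to 5.73) and 40.3% of 30654 in Harr (39.7 to 40.8). Over all genes the shares were 6.14%, 8.71% and 33.5%, so that the proteasome genes lay below all genes in WT and Chx and above them in Harr. The absolute number of 5′ UTR reads was higher in Harr than in Chx although the library was shallower, with 12339 against 9110 reads, while CDS reads were 14918 against 141925. Of the 5′ UTR reads in Harr, 38.8% came from 5 genes.

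The change within each gene is given as the 5′ UTR:CDS log2 odds ratio between a pair of libraries, after adding 0.5 to every count. A gene was called when the pair held at least 10 5′ UTR reads, the log2 odds ratio was at least 1 in size and its 95% counting interval excluded 0. Between Harr and Chx 42 of 43 genes were higher in Harr, where 88.8% of all genes were, and 0 were lower, where 0.12% were. Between Harr and WT 42 of 43 were higher in Harr, where 93.7% of all genes were, and 0 were lower, where 0.135% were. A call was therefore the rule for all genes, and the members' share says little. Where a gene had 10 or more reads for both regions, the median log2 odds ratio of the proteasome genes was 3.61 between Harr and Chx (43 genes) against 2.46 over 10723 genes, and 4.28 between Harr and WT (42 genes) against 3.23 over 10314 genes. With Psmb9, which had 0 CDS reads in Harr, set to its bound of 5.17, the first median was still 3.61.

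**Figure D2:**
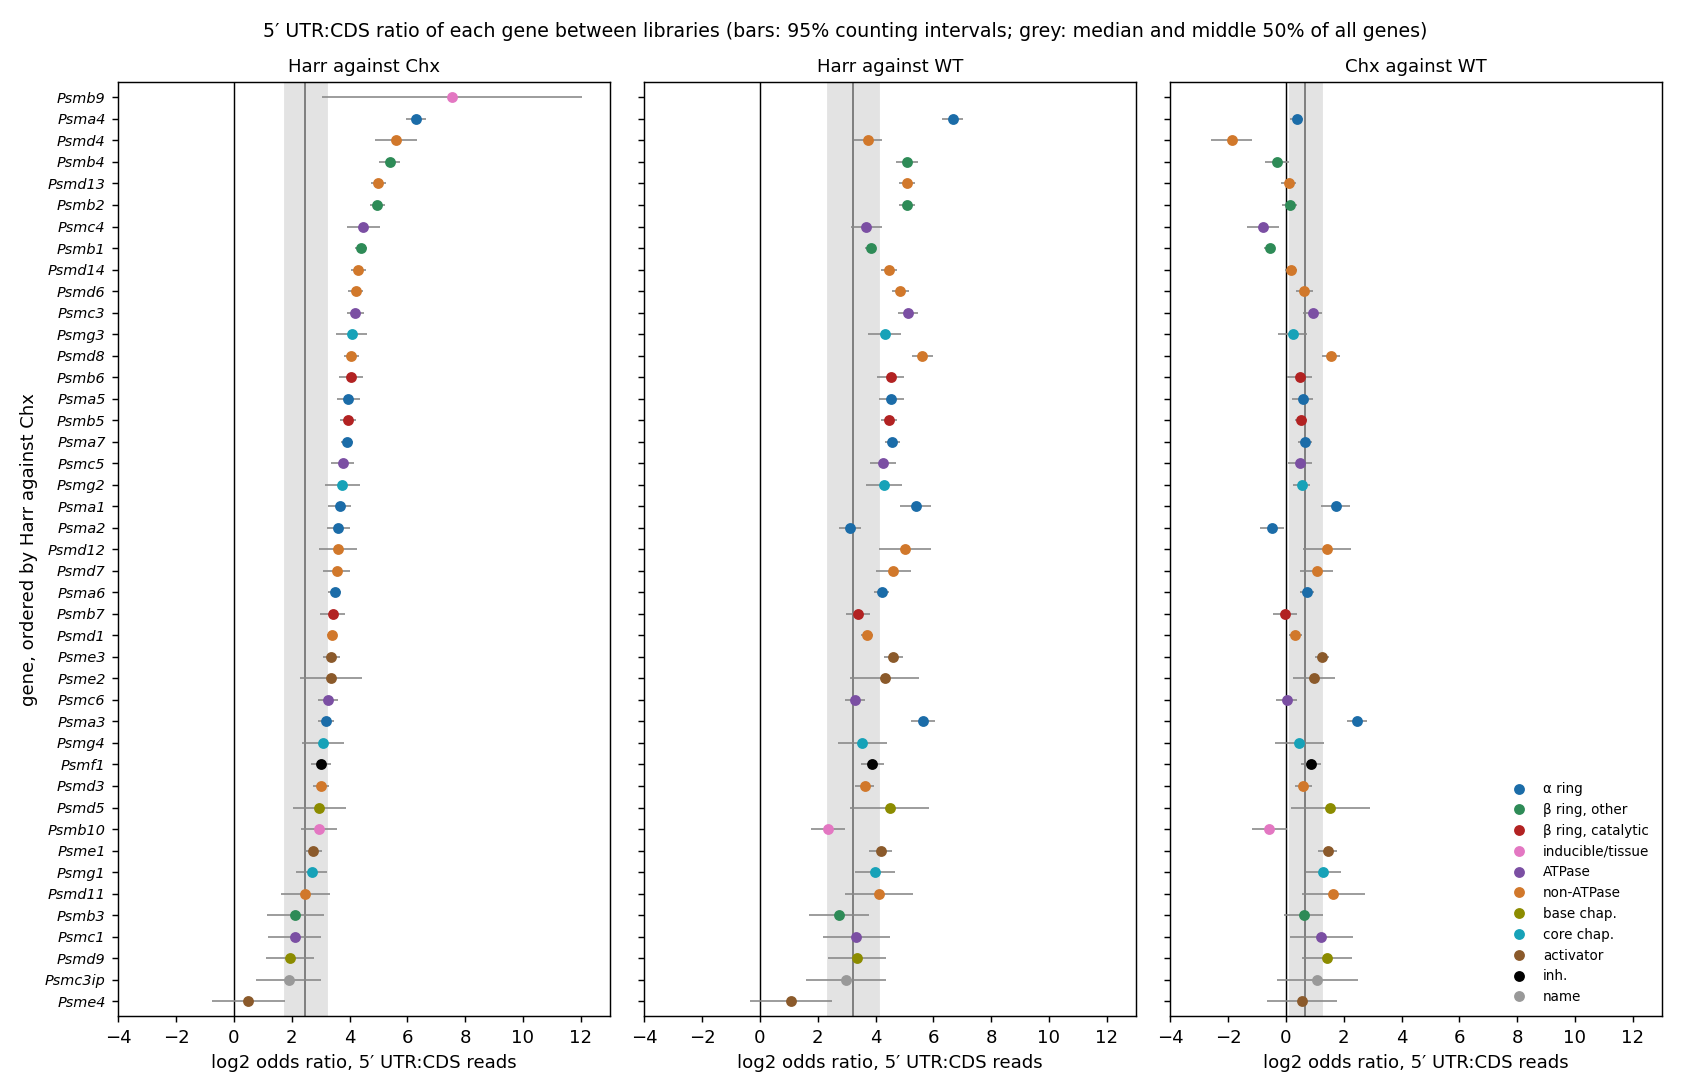
Each gene's 5′ UTR:CDS log2 odds ratio for Harr against Chx, Harr against WT and Chx against WT, with 95% counting intervals and colours for roles, beside the median (grey line) and the middle 50% (grey band) of all genes. In the left panel most genes lie to the right of the all-gene median of 2.46, with Psme4 at 0.50 as the lowest.

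Psma4, the α3 subunit, had the highest value resting on many reads. Its CDS lies on chromosome 9 between 54952106 and 54957789 (mm10, plus strand), and its first coding exon ends directly after the start codon. Its 138-nucleotide 5′ UTR held 430, 1070 and 283 reads in Chx, Harr and WT, and its CDS held 2553, 80 and 2169. For each CDS read there were thus 0.168, 13.4 and 0.130 5′ UTR reads in Chx, Harr and WT, and the log2 odds ratio against WT was 6.67 ± 0.19. In Harr more reads of this gene thus began before its coding sequence, those of ribosomes on the start codon included, than within it. Words found in other genes made up 44.6% of its transcript.

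In the β ring, Psmb4, whose product caps the ring as the last β subunit to join it, had 98, 206 and 98 5′ UTR reads in Chx, Harr and WT beside 8040, 403 and 6493 CDS reads, a log2 odds ratio of 5.38 ± 0.19 against Chx. Psmb2 was at 4.96 ± 0.14 and Psmb1, with at least 1 UTR that overlaps an annotated CDS, at 4.39 ± 0.10. All 3 catalytic subunits were called, with Psmb5 at 3.94 ± 0.14, Psmb6 at 4.05 ± 0.21 and Psmb7 at 3.41 ± 0.21. The non-catalytic β subunits had a median of 4.68, the catalytic ones 3.94 and the α ring 3.66. Psmb3 was the exception in the ring at 2.13 ± 0.50. Its 5′ UTR held 46, 10 and 28 reads in Chx, Harr and WT, and like Psma4, Psma1 and Psmc1 it has a coding exon of 3 nucleotides at its start.

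In the regulatory particle the medians against Chx were 3.77 for 5 ATPases and 3.84 for 10 non-ATPase subunits. Psmd4 had the highest value of the particle at 5.61 ± 0.36, with 20, 82 and 66 reads in Chx, Harr and WT on a 5′ UTR of 10 nucleotides. At least 1 of its UTRs overlaps an annotated CDS. Psmd13, of the lid, was at 4.99 ± 0.13, and at least 1 UTR of Psmd13 overlaps an annotated CDS too. Psmd14, the deubiquitinase that removes ubiquitin chains from substrates, had 526, 665 and 383 5′ UTR reads beside 3312, 213 and 2735 CDS reads, a value of 4.29 ± 0.13. Psmc2, an ATPase (chromosome 5, 21786689 to 21803704, plus strand), had almost no 5′ UTR reads. Its 274-nucleotide 5′ UTR held 3, 0 and 1 reads in Chx, Harr and WT although its CDS held 4784, 767 and 3993, and the first 196 nucleotides of its CDS held 244, 258 and 235. No Harr read of Psmc2 thus lay in its annotated 5′ UTR, and the reads there were too few for a ratio. Psmd2, of the same particle, was alike, with 4, 1 and 2 5′ UTR reads in Chx, Harr and WT. The first 135 nucleotides of its CDS held 625, 379 and 395 reads.

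Chaperones and activators had lower medians against Chx, at 3.42 for core assembly (4 genes), 2.44 for base assembly (2 genes) and 3.04 for activators (4 genes). Psme3, the nuclear activator, had 686, 665 and 225 5′ UTR reads in Chx, Harr and WT, a value of 3.36 ± 0.15 against Chx. Psme4 (chromosome 11, 30771983 to 30878513, plus strand) was the member that was not called. Its 257-nucleotide 5′ UTR held 15, 7 and 8 reads beside 1450, 495 and 1179 in the CDS, a log2 odds ratio of 0.50 ± 0.65 against Chx and 1.07 ± 0.73 against WT. Psmd9, a base chaperone, was at 1.93 ± 0.43 and Psmc3ip at 1.89 ± 0.58. Psmb9 had 2, 12 and 3 5′ UTR reads and 0 CDS reads in Harr, so that its fitted value is no measure of size. The genes with too few 5′ UTR reads in the pair were Psma8, Psmb8 and Psmb11, with 0 in each library, and Psmc2, Psmd2, Psmd10 and Psme2b, with at most 5 in any library.

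Between Chx and WT 12 of 42 genes were called higher in Chx for the 5′ UTR:CDS ratio, against 30.2% of all genes, and 1 was called lower, against 1.09%. The median was 0.60 against 0.67 over 10430 genes, so the proteasome genes lay close to all genes in this comparison. Psma3, the α7 subunit, was highest at 2.46 ± 0.18, with 480, 416 and 75 5′ UTR reads in Chx, Harr and WT beside 2419, 230 and 2091 CDS reads. Psma1 (1.72 ± 0.26) and Psmd11 (1.64 ± 0.56) followed. The gene that was lower in Chx was Psmd4 at -1.88 ± 0.37. Psmc4 was at -0.79 ± 0.29 and Psmb10 at -0.57 ± 0.32. The other genes called higher were Psmc1, Psmd5, Psmd7, Psmd8, Psmd9, Psmd12, Psme1, Psme3 and Psmg1. With 5 in place of 0.5 added to every count, Psmc1, Psmd5 and Psmd7 were no longer called, at 0.92 to 0.98.

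A few genes read differently with another transcript. The 28-nucleotide 5′ UTR of Psmd8, a lid subunit, held 433, 456 and 109 reads in Chx, Harr and WT, but on its transcript with the longest CDS the 5′ UTR held 1 read in each library and no call was left. The longest transcript of Psmd2, the ubiquitin-binding scaffold of the base, has a CDS of 183 nucleotides and is annotated as a target of nonsense-mediated decay, and its 3′ UTR holds 8190, 1695 and 6475 reads. On its transcript with a CDS of 2727 nucleotides, Psmd2 had 8792, 1942 and 6834 CDS reads, or 90.3, 73.0 and 82.9 RPKM. There its 65-nucleotide 5′ UTR held 4, 2 and 4 reads and its 3′ UTR 6, 129 and 19, so that most reads listed under the 3′ UTR of the longest transcript are CDS reads on this one. With this transcript choice the constitutive subunits ran in Harr from 10.4 RPKM (Psma4) to 97.0 RPKM (Psmb1). UTRs overlapped a CDS in 11 of the 50 genes, and without such genes the median against Chx was 3.45 (34 genes) against 2.49 over 8917 genes.

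CDS levels were then compared as the log2 ratio of a gene's reads per 1000000 reads in any CDS, for genes whose CDS held 100 reads or more when the libraries were added up, which 46 of the 50 reached. Psma8, Psmb8, Psmb9 and Psmb11 did not. A gene was called when it differed at least 2-fold with a counting interval that excluded 0. Between Harr and Chx 22 of 46 genes were lower in Harr, where 13.7% of all genes were, and 1 was higher, where 4.63% were. Between Harr and WT 23 of 46 were lower, where 14.3% of all genes were, and 1 was higher, where 5.3% were. The median ratio was -0.98 against Chx and -0.99 against WT, with 41 of 46 genes under 0 in each comparison. Over all 11459 genes the medians were -0.048 and 0.0025. This scale holds the sum of CDS reads equal. With mitochondrially encoded CDS reads, made by ribosomes that neither drug targets, as the reference, the medians fell to -2.36 and -2.30, where those of all genes were -1.43 and -1.31, and 45 of 46 genes lay under 0.

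Over all genes the CDS ratio varied with CDS length, so the proteasome genes were also set beside genes of like length. At 600 to 900 nucleotides the median was -0.998 for 26 proteasome genes and -0.64 for 1539 genes. At 900 to 1500 nucleotides it was -1.18 for 13 proteasome genes and -0.34 for 3038 genes. From 1500 nucleotides on it was -0.049 for 4 proteasome genes and 0.32 for 5212 genes. In the classes from 600 to 1500 nucleotides the proteasome medians lay under those of genes of like length, and against WT their medians of -1.03 and -1.20 lay under -0.65 and -0.30. The class from 1500 nucleotides on is wide, and in narrower ones Psmd3 (-0.69) and Psmd5 (-0.46) lay under the all-gene median of 0.044 at 1500 to 2000 nucleotides, Psmd1 (0.36) above that of 0.30 at 2000 to 3000, and Psme4 (0.87) above that of 0.55 at 3000 to 6000. Under 600 nucleotides the 3 proteasome genes had -0.32 and the 1670 genes -0.68, and 1 of the 3 was the short Psmd2 transcript.

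**Figure D3:**
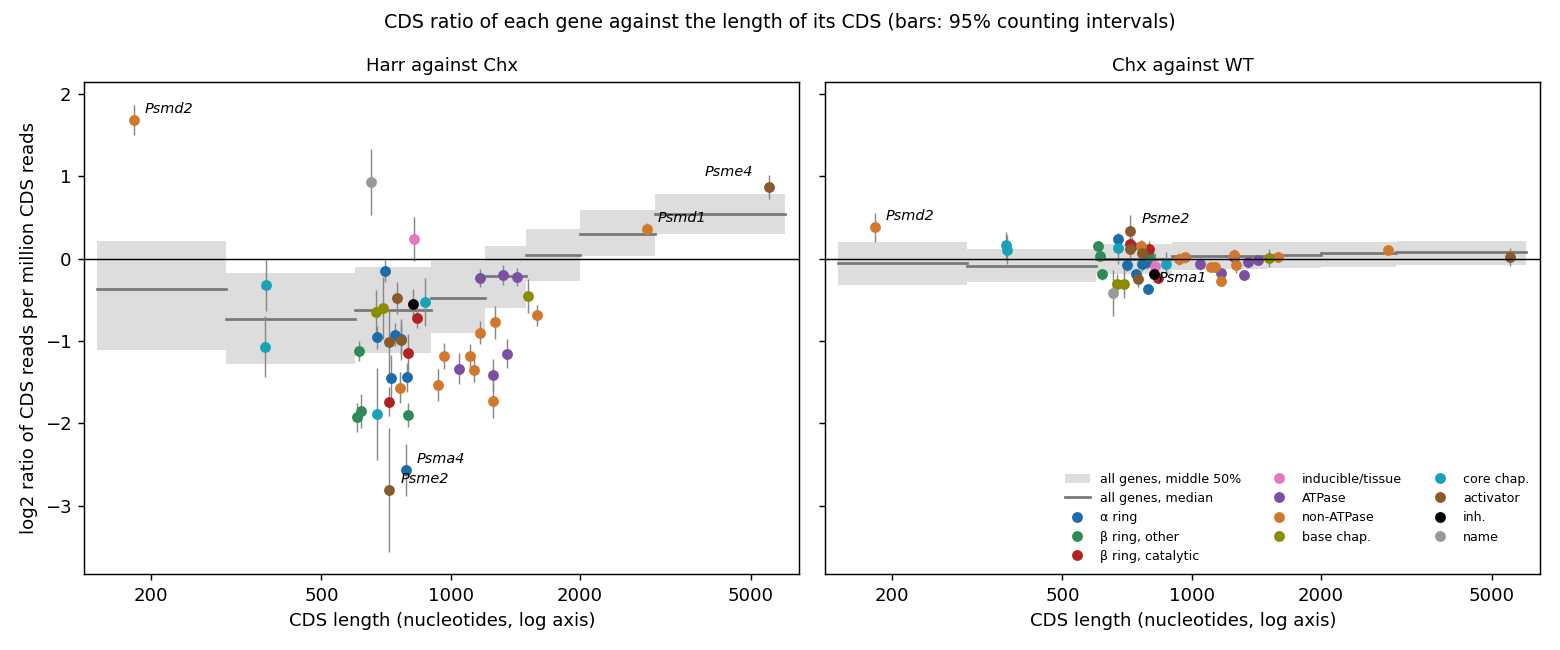
CDS level ratio (log2, per 1000000 reads in any CDS) by CDS length (log axis) for the 46 genes with at least 100 CDS reads, coloured by role with 95% counting intervals, beside the median and middle 50% of all genes in each length class. Left, Harr against Chx, where Psma4 (-2.57) and Psme2 (-2.81) are lowest. Right, Chx against WT, where all 46 genes lie between -0.42 and 0.38.

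The non-catalytic β subunits had the lowest group median, at -1.87 against Chx. Psmb2, Psmb3 and Psmb4, of 606 to 795 nucleotides, had 5248, 3777 and 8040 CDS reads in Chx, and 257, 195 and 403 in Harr, with ratios of -1.93 ± 0.09, -1.85 ± 0.11 and -1.90 ± 0.07. All 4 non-catalytic β subunits were called lower in both comparisons. Of the catalytic subunits, Psmb6 (-1.74 ± 0.09) and Psmb5 (-1.14 ± 0.12) were called lower against Chx, and Psmb7 was at -0.72 ± 0.06. In the α ring 3 of 7 were called lower against Chx and 5 of 7 against WT, with ratios to Chx from Psma4 (-2.57 ± 0.16) to Psma2 at -0.15 ± 0.07, although Psma2 and Psma4 differ little in CDS length (705 and 786 nucleotides). In the regulatory particle 3 of 6 ATPases and 6 of 11 non-ATPase subunits were called lower against Chx. The ATPases split between Psmc4 (-1.42 ± 0.10), Psmc5 (-1.34 ± 0.10) and Psmc3 (-1.16 ± 0.09) on one side and Psmc6 (-0.23 ± 0.05), Psmc2 (-0.22 ± 0.06) and Psmc1 (-0.20 ± 0.06) on the other, with CDSs of 1047 to 1428 nucleotides in all 6. On other transcripts the calls of Psmc3 (-0.87 with the most reads) and of Psmd4, Psmd8 and Psmd12 (-0.72, -0.18 and -0.30 with the longest CDS) were lost.

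Outside the complex, Psme2 had the lowest ratio of all members against Chx, with 544, 14 and 354 CDS reads in Chx, Harr and WT (-2.81 ± 0.38 against Chx and -2.47 ± 0.39 against WT). Words found in other genes, its copy Psme2b among them, made up 69.4% of its transcript, and Psme2b was at -1.01 ± 0.20 (-0.96 and not called with median-of-ratios size factors). Among the core chaperones Psmg2 (-1.89 ± 0.29) and Psmg3 (-1.07 ± 0.19) were called lower against Chx. None of the 3 base chaperones was called, with values from -0.64 to -0.46.

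Few genes were level or higher in Harr. Psme4, with the longest CDS of 5532 nucleotides, was at 0.87 ± 0.08 against Chx and 0.89 ± 0.08 against WT, and Psmd1, with 2862 nucleotides, at 0.36 ± 0.04 and 0.46 ± 0.04. Psmc3ip was at 0.93 ± 0.20 and 0.51 ± 0.20, and Psmb10 at 0.24 ± 0.14 and 0.15 ± 0.14. With the mitochondrial reference all 4 of these were under 0. The gene called higher was Psmd2, at 1.69 ± 0.09 against Chx and 2.07 ± 0.10 against WT on its short transcript, and on the transcript with the 2727-nucleotide CDS it was at 0.23 ± 0.04 and 0.32 ± 0.04 and was not called.

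Between Chx and WT 0 of 46 CDSs were called higher, where 0.201% of all genes were, and 0 lower, where 0.122% were. The median ratio was -0.0093 and the SD over the 46 genes 0.18, against 0.033 and 0.27 over all genes. The lowest were Psmc3ip (-0.42 ± 0.14), Psma1 (-0.37 ± 0.03) and Psmd9 (-0.31 ± 0.06), and the highest Psmd2 (0.38 ± 0.09), Psme2 (0.34 ± 0.10) and Psma7 (0.24 ± 0.03). Several of these small differences exceeded counting error, and without a second library per group nothing more can be said of them.

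The loss of CDS reads was not even along the mRNA. In 17 proteasome genes with CDSs reaching 900 nucleotides, exon segments of up to 600 nucleotides were sorted by how far each midpoint lay from the ATG, and the reads of Harr were divided by those of Chx per 1000000 library reads. Psmb11, with a single coding exon of 909 nucleotides, has no segment within that limit. The ratio was 0.570 (counting interval 0.540 to 0.602) within 150 nucleotides, 0.161 (0.145 to 0.179) from 150 to 300, 0.186 (0.174 to 0.199) from 300 to 600 and 0.312 (0.295 to 0.329) from 600 to 900. Farther on it was 0.728 (0.691 to 0.768) from 900 to 1200, 1.33 (1.24 to 1.43) from 1200 to 1500 in 8 genes, and 1.38 (1.30 to 1.47) beyond, in 3 genes. The footprints were thus thinned most between 150 and 600 nucleotides, and the part before 150 nucleotides was thinned less. Ribosomes on the start codon are counted in the 5′ UTR and not in this part. In all genes the lowest value was 0.268 at 300 to 600 nucleotides, and at 150 to 300 it was 0.331. Within 300 nucleotides the ratio was 0.378 times (0.356 to 0.401) that beyond 900 nucleotides, against 0.400 in all genes. For Harr against WT it was 0.357 times (0.337 to 0.379) and for Chx against WT 0.946 times (0.916 to 0.977). The first 150 nucleotides included the 258 Harr reads of Psmc2 described above, out of 1512. Since the scale is per 1000000 library reads, a ratio above 1 is a larger share of the library. It does not show a gain of footprints.

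**Figure D4:**
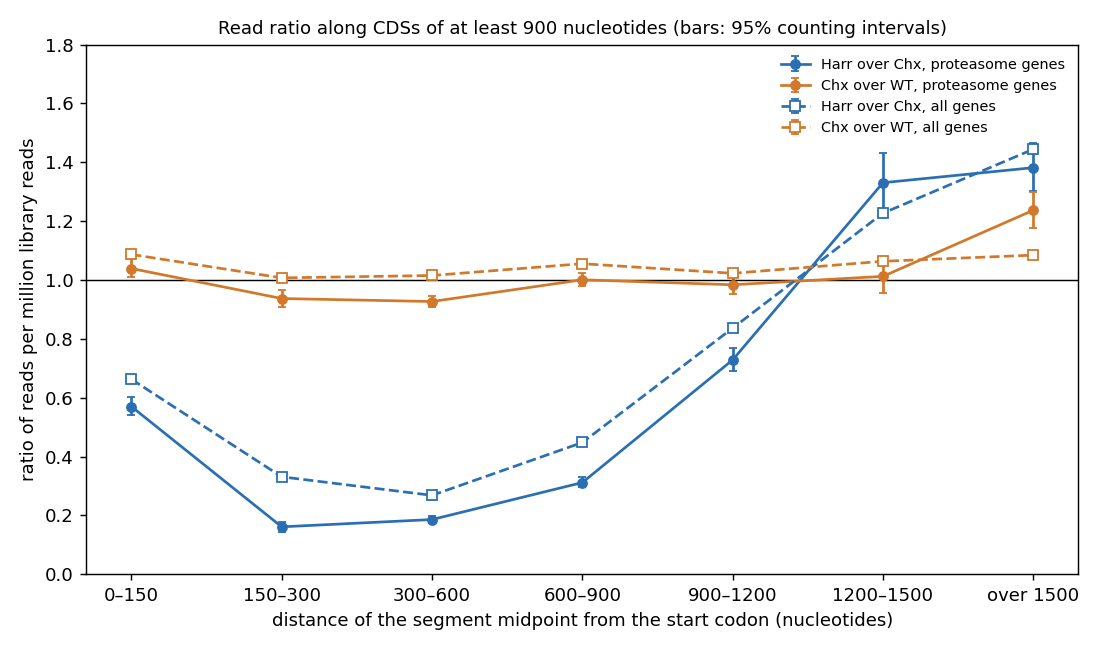
Ratio of reads per 1000000 library reads along CDSs of at least 900 nucleotides, by the distance of the segment midpoint from the start codon, for Harr over Chx (blue) and Chx over WT (orange), in proteasome genes (filled circles) and all genes (open squares), with 95% counting intervals. Harr over Chx in proteasome genes dips to 0.161 at 150 to 300 nucleotides and passes 1 only beyond 1200, and Chx over WT stays between 0.927 and 1.24. A ratio above 1 is a larger share of the library's reads.

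The 3 longest CDSs were also followed one by one. In Psmd1, the ratio of Harr to Chx was 0.289 in the first 900 nucleotides (223 against 2828 reads), 1.08 from 900 to 1800, 1.34 from 1800 to 2700 and 1.52 beyond. In Psmd2, on the transcript with the longest CDS, it was 0.542, 0.735 and 1.36. In Psme4 it was 0.663, 1.51 and 1.82, and 1.42 beyond 2700 nucleotides (226 against 581 reads), below the stretch before. Each of the 3 genes was below 1 in its first stretch and above 1 from 1800 to 2700 nucleotides. These values are shares of library reads and do not show a gain of footprints. With the mitochondrial reference the whole-CDS log2 ratios to Chx of Psmd1 and Psme4 were -1.03 and -0.51.

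The 3′ UTR is a region without annotated translation. In the 39 proteasome genes whose UTRs overlap no CDS it held 0.114%, 4.49% and 0.491% of the reads of Chx, Harr and WT, against 0.602%, 3.17% and 1.02% in 17710 genes of all kinds. Psmd14 had 3, 106 and 14 reads there in Chx, Harr and WT, and Psmd6, a lid subunit, had 2, 92 and 13. Psma4 had 4, 89 and 29, and Psmc1 had 10, 101 and 43. In these 39 genes the 3′ UTR share was thus below that of all such genes in Chx and WT and above it in Harr. Over all 50 genes it was 6.93%, 11.1% and 7.25%, above the 1.71%, 4.10% and 2.18% of all genes in each library, with Psmd2 alone giving 8190, 1695 and 6475 of the 11242, 3397 and 9824 reads.

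Genes that work with the proteasome were set beside it, from 3 lists of partners and assembly factors, of the transcription factors that control proteasome genes with their processing enzymes, and of ubiquitin and its delivery. In Harr, 26 of 28 genes were called higher than in Chx for 5′ UTR:CDS and 26 of 27 higher than in WT, near the 88.8% and 93.7% of all genes, with medians of 2.55 and 3.46. Those not called against Chx were Nfe2l2, a transcription factor of the stress response (0.65 ± 0.97), and Zfand2a, a stress-induced partner of the proteasome (0.90 ± 0.25). Nfe2l2 had only 7 and 3 5′ UTR reads in Chx and Harr, and Zfand2a had 575 and 264. Their CDS ratio had a median of -0.29 against Chx, with 2 of 28 genes called lower, below the 13.7% of all genes. The genes lower against Chx were Txnl1, a thioredoxin-like protein of the regulatory particle, with 4327, 283 and 4059 CDS reads (-1.51), and Uchl5, a deubiquitinase of the regulatory particle, with 923, 69 and 657 (-1.31). Against WT, Akirin2, Rps27a, Txnl1, Uchl5 and Ufd1 were called lower (5 of 28, against 14.3% of all genes) and Ecpas higher (1 of 28, against 5.3%). In the first list, of 11 partners, the CDS median was -0.69, and in the list of 13 genes for ubiquitin and its delivery it was 0.14. Nfe2l1, the transcription factor that restores proteasome genes when the proteasome is blocked, had 928, 1046 and 505 5′ UTR reads beside 4456, 1052 and 3135 CDS reads. Its 5′ UTR:CDS log2 odds ratio was 2.25 against Chx, where the median of all genes was 2.46.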

How the data were processed

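Cultured cortical neurons gave 3 libraries, and the authors deposited 9 Plastid tables, separating library and region. The deposited counts are whole, unnormalized reads per exon segment, the deposited coverage signal divides them by segment length, and the deposited RPKM is the count per 1000 nucleotides and 1000000 library reads. Per the file headers, reads of 25 to 100 nucleotides were counted at the 5′ end with an offset of 0, on mm10, once ribosomal and duplicate reads had been removed. For alignment the methods name Rsubread, ahead of Plastid, for the study's other profiling libraries and TopHat for the reading-frame search in these, and do not say which lies behind these tables.

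Counts alone were used. Segments were summed per transcript, identifiers were joined to GENCODE M21 (99.1% of 142446 matched with version), and RPKM was recomputed. The members and lists were chosen with earlier results of these data known. Named are the catalytic and inducible subunits, the extremes of each role and comparison, and the 3 longest CDSs. Some further genes were named after their values were seen. Alternatives were another transcript, leaving out genes that share sequence or overlap a CDS, other pseudocounts, minima, normalizations and position limits. Transcripts with the longest CDS and leaving out Psmc3ip were added after seeing the data. Statistics used Python 3.11.15, pandas 2.3.3 and scipy 1.17.1, and were tested on simulated data. All intervals and floors cover counting error only, since each treatment has 1 library, and they treat each read as an independent molecule. The value of 1 gene of the partner and ubiquitin lists is not reported here.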

Additional observations from a re-analysis of the deposited data

How the results depend on the processing

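No paired analysis was possible because each treatment has 1 library. The 5′ UTR:CDS medians and counts of Harr kept their direction under each alternative. With mitochondrially encoded CDS reads as the reference, the median CDS ratio of Harr was -2.36 with Chx and -2.30 with WT, that of Chx with WT was 0.060, 43 and 42 of 46 genes were called lower in Harr than in Chx and WT (73% and 65.8% of all genes were), and Psmd1 (-1.03 against Chx, -0.85 against WT), Psme4 (-0.51 and -0.42) and Psmc3ip (-0.45 and -0.80) turned below 0. Psmd8 turned with other transcripts, to 0.0094 for the CDS ratio of Harr against WT with the most reads and 0.0032 with the longest CDS, and to -0.46 for the 5′ UTR:CDS ratio of Chx against WT with either. The ratio within 300 against beyond 900 nucleotides with the most reads was 0.440 and 0.448 for Harr over Chx and over WT, and 1.02 for Chx over WT. With the longest CDS it was 0.480, 0.469 and 0.977. It was 0.995 for Chx against WT with limits of 450 and 750 nucleotides, and 0.481 for Harr against WT as a median over genes. The 5′ UTR shares of Chx, Harr and WT were 5.32%, 38.1% and 3.71% with the most reads, 5.15%, 38.1% and 3.62% with the longest CDS, 5.77%, 41.2% and 3.72% without overlapping UTRs, and 5.30% in Chx without genes that share sequence. The causes were not tested. Counting each single-gene value once per alternative, 37 gained and 22 lost a call. Harr was the shallowest library, and its low counts are the least precise.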
